A study of Mus musculus with 16 samples.

Results

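The replication-dependent histone genes were examined in lists of ChIP-seq islands from differentiating 3T3-L1 cells. The set was taken as the protein-coding genes of the GENCODE annotation of mm9 whose symbol begins with Hist1h, Hist2h, Hist3h or Hist4h, which gave 67 of 22380 genes. A gene was said to carry an island where an island shared at least 1 bp with the gene or the 2000 bp on either side of it, and its cover is the percentage of that window inside islands. An island is a stretch in which the authors' peak caller found more reads than its background predicts.

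Replication-dependent histone genes encode the proteins that package newly copied DNA, the core histones H2A, H2B, H3 and H4 and the linker histone H1. They lie in clusters, mostly lack introns, are transcribed mainly in S phase, and their mRNAs end in a conserved hairpin in place of a poly(A) tail. The cell cycle was not measured in these libraries. H3K27ac marks active promoters and enhancers and H3K4me1 marks enhancers, and SETD5 is a SET domain protein that was studied here with the NCoR-HDAC3 corepressor complex.

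The 3T3-L1 line derives from mouse embryo fibroblasts and can turn into adipocytes, and day 0 was set after confluence, when the MDI mixture of insulin, dexamethasone and isobutylmethylxanthine was added. H3K27ac was profiled in cells carrying an empty retroviral vector and in cells expressing SETD5 from the same kind of vector, at 0 h and 48 h, with replicates A and B in each of these 4 groups. SETD5-V5, the tagged protein, was profiled with 2 replicates at 0 h and 2 at 6 h, and H3K4me1 (0 h and 48 h) and endogenous SETD5 (0 h and 6 h) with 1 library each. The vector is driven by a weak viral LTR promoter and its expression cannot be read from island lists. The labels name the SETD5 virus for SETD5-V5 replicate B and for H3K4me1, give a dash for SETD5-V5 replicate A and endogenous SETD5, and the study shows H3K4me1 as untransduced cells. All p-values below measure the spread between these libraries only.

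The 8 H3K27ac lists held 31292 to 39949 islands, and all 16 lists together ranged from 2132 islands in endogenous SETD5 at 0 h to 50276 in H3K4me1 at 0 h. The lists give no read counts within islands, so a gene without an island was below the caller's threshold and is not shown to lack the mark, and a smaller number of marked cells cannot be told apart from less mark per cell. SETD5-V5 replicate B at 0 h stood apart, with 6666 islands against 16054 in replicate A, and means and counts that rest on it are also given without it. As to the labelled cell type, islands of H3K27ac lay at 4 to 5 of 5 preadipocyte markers and at 2 to 4 of 10 markers of blood, liver, nerve, epithelium and muscle. Adipocyte markers carried one at 3 of 6 genes in every 0 h list, at 6 of 6 in both empty-vector lists at 48 h and at 5 of 6 in both SETD5 lists at 48 h.

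The 67 genes comprised 6 H1, 19 H2A, 18 H2B, 11 H3 and 13 H4 genes. They fell into 6 groups separated by at least 200000 bp. The 2 largest lay on chromosome 13, with 23 genes at chr13:21807632-22135545 and 31 genes at chr13:23622919-24026720, and Hist1h2al lay alone at chr13:51298057-51298434. The Hist2 genes, 9 in number, lay at chr3:96023839-96082924, Hist3h2ba and Hist3h2a at chr11:58762413-58770176, and Hist4h4 at chr6:136752589-136752900. Of the 67 genes, 61 had a single exon, and the median gene was 530 bp long against 15420 bp over all protein-coding genes. Most of their windows are therefore short, and windows overlap each other and merge into 27 stretches, so that 1 island often counted for several genes. The window exceeds 7 kb at 6 genes. That of Hist1h2be is 41383 bp long and weighs heavily on cover of the merged windows, which total 267619 bp.

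The promoters of these genes shared letters that the rule had not used. The sequence CCAAT, a binding motif of the factor NF-Y, was present on either strand from 250 bp before to 50 bp after the start in 57 of 67 genes (85.1%), against 37.9% of all protein-coding genes. TATAAA was present in 38 genes (56.7% against 13.4%) and the octamer ATTTGCAT, a motif of POU factors, in 15 genes (22.4% against 1.72%), of which 7 were H2A and 8 were H2B genes. CCAAT was present in all 19 H2A, 18 H2B and 6 H1 genes, in 10 of 11 H3 genes and in 4 of 13 H4 genes. The H3 gene Hist2h3c1 and the H2A gene Hist2h2aa1 start at 96049477 and 96049461 on the plus strand of chromosome 3. Their promoter windows overlap, and the same motifs count for both. For Hist1h2be the window lies at the annotated start, chr13:23712993, whereas its hairpin lies at chr13:23677400-23677415. In 12 pairs an H2A and an H2B gene started back to back, 167 to 305 bp apart. A motif between the starts can count for both genes. Between the starts, 5 of these pairs hold ATTTGCAT and all 12 hold CCAAT, so the counts per gene are not independent. The sequences between 3 such pairs are shown because their island patterns differ. The first pair lies under SETD5-V5 islands of 13200 and 14400 bp at 6 h, the second had H3K27ac over its whole window in empty-vector cells at 48 h, and the third carried no island in any list. They are the plus strand of mm9, with capitals where any of these 3 motifs or its reverse complement occurs, at chr13:22134819-22135082, chr13:23666066-23666249 and chr13:24026028-24026327.
Hist1h2ag/Hist1h2bj: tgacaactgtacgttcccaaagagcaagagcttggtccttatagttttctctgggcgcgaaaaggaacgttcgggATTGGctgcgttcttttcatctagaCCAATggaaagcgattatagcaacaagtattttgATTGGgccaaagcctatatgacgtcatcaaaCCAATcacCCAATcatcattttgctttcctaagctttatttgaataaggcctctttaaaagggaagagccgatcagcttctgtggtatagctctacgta
Hist1h2bf/Hist1h2ad: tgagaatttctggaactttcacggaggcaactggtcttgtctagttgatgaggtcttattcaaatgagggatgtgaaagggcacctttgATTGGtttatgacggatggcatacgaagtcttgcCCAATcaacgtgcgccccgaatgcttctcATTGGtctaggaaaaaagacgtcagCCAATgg
Hist1h2ba/Hist1h2aa: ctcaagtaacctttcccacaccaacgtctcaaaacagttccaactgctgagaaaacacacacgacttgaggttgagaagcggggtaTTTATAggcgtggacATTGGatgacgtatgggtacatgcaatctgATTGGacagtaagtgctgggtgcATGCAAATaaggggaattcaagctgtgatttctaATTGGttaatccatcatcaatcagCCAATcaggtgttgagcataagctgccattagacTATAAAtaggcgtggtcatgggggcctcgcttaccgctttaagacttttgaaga

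Between the starts, the third pair held 4 CCAAT, 2 TATAAA and 1 ATTTGCAT. The first and second pair held 5 and 4 CCAAT there and neither of the others. In the promoter window used for the counts above, Hist1h2bf and Hist1h2ad of the second pair each have 1 TATAAA, which lies outside the stretch shown. For the H4 genes, the 250 bp before the start are shown for Hist1h4b, which carried H3K27ac in empty-vector cells at 48 h alone (chr13:23848556-23848805, plus strand), and for Hist4h4, which carried endogenous SETD5 at both times (chr6:136752901-136753150, minus strand). Neither holds any of the 3 motifs.
Hist1h4b: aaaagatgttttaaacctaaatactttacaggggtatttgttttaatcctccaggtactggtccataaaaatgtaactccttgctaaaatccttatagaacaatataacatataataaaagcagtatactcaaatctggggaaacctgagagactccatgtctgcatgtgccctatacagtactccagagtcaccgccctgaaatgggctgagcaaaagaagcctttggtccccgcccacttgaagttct
Hist4h4: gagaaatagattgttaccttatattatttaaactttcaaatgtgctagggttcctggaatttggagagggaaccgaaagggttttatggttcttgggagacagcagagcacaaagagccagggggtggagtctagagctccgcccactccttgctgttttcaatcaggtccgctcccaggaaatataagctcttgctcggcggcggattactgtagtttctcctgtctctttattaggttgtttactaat

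At the other end of the gene, a 16-base hairpin with a paired stem of 6 bases was found within 100 bp after the coding sequence in 61 of 67 genes. The most common form, in 39 genes, is shown with the stem in capitals, and it is the element bound by the stem-loop binding protein SLBP. The 6 genes without a match were Hist1h2an, Hist1h3g, Hist1h4a, Hist1h2al, Hist2h2be and Hist2h2bb, for which these letters were not found in this window.
Hairpin of 39 genes: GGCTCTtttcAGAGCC

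Near-identical copies limit what the lists can say about some of the genes. Of the 36-base reads that could start in a gene's window, a median of 85.7% were unique in mm9, and 49.8% within the genes themselves. The share was 0.347% for Hist1h2br, 0.462% for Hist1h2bq, 2.10% for Hist1h2ao, 2.21% for Hist1h2ap, 3.98% for Hist1h4m and 25.1% for Hist1h4n. These 6 genes lie in 2 stretches, at chr13:21898281-21904016 and chr13:21923636-21929399, and islands there may hold reads that belong elsewhere. All 6 carried H3K27ac islands in all 8 lists, and their values are uncertain.

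**Figure D1:**
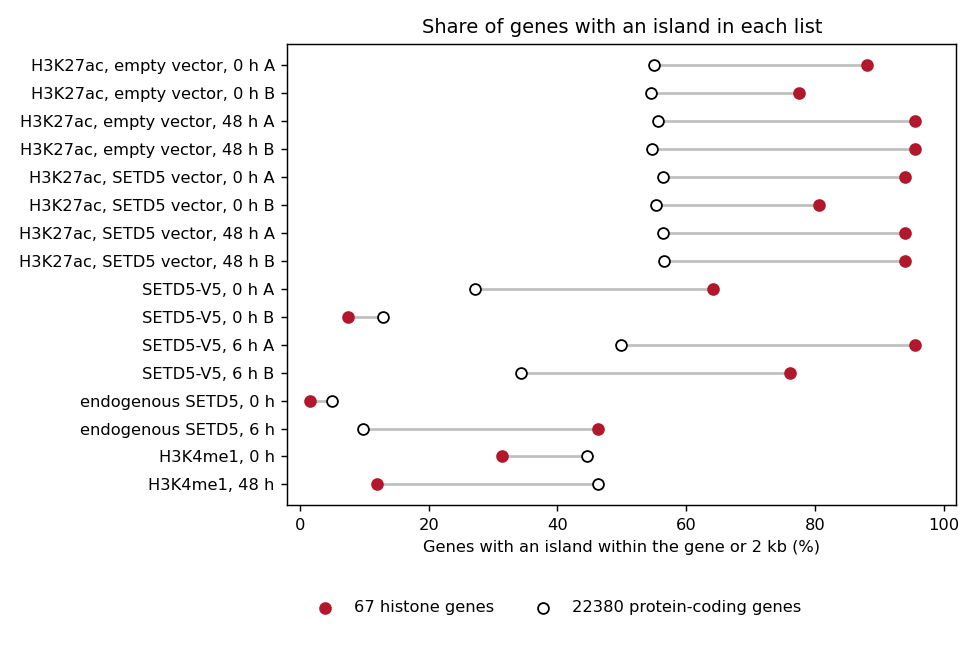
Percentage of genes with an island in each of the 16 lists, for the 67 histone genes (filled) and all 22380 protein-coding genes (open). The histone genes lie to the right in all 8 H3K27ac lists, where they range from 77.6% to 95.5%, and to the left in both H3K4me1 lists. For the equal windows around the start, the H3K4me1 shares are 29.9% against 28.2% at 0 h and 11.9% against 29.3% at 48 h.

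H3K27ac was the mark these genes carried most widely. An H3K27ac island was present at 59 and 52 of the 67 genes in empty-vector cells at 0 h (replicates A and B), at 64 and 64 at 48 h, at 63 and 54 in SETD5 cells at 0 h and at 63 and 63 at 48 h. Of these genes, 48 had one in all 8 lists, which was not counted over all genes. Islands in both replicates were found at 51 genes in empty-vector cells at 0 h (53.0% of all genes had this), at 64 at 48 h (53.5% of all genes), at 54 in SETD5 cells at 0 h (54.3%) and at 63 at 48 h (55.2%). No test was run over genes, so these shares stand as descriptions. The 10 other protein-coding genes inside the same blocks carried H3K27ac at 1 to 3 of 10. Of the histone genes, 3 carried no island in any of the 16 lists, which was not counted over all genes either. They were Hist1h2ba, Hist1h2aa and Hist3h2ba.

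The clearest pattern was in the extent of H3K27ac. Over the merged windows, H3K27ac islands covered 33.2% and 24.5% in empty-vector cells before differentiation and 55.6% and 47.7% at 48 h, and 30.8% and 26.98% in SETD5 cells at 0 h and 34.9% and 37.9% at 48 h. The mean was 28.9% ± 3.87 (SD, n = 4) at 0 h and 44.0% ± 9.44 (n = 4) at 48 h, a difference of 15.2 percentage points. All 4 libraries at 48 h were above all 4 at 0 h (two-sided exact permutation test, p = 0.0286, the smallest p that 4 against 4 allows), and the Benjamini-Hochberg adjusted value over the 4 H3K27ac comparisons was 0.114. The number of genes with an island differed by 6.5 between the times (57.0 ± 4.97 and 63.5 ± 0.577, n = 4 each, exact permutation p = 0.0857, adjusted 0.171). The comparison of the vectors over both times gave -7.59 percentage points (SETD5 minus empty vector, 32.7% ± 4.77 and 40.2% ± 14.02, n = 4 each, exact permutation p = 0.4, adjusted 0.533) and 1 gene (60.75 ± 4.5 and 59.75 ± 5.68, n = 4 each, exact permutation p = 0.8).

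Within the vectors, the time difference was 22.8 percentage points in empty-vector cells (22.4 in A and 23.2 in B) and 7.53 in SETD5 cells (4.15 in A and 10.9 in B). At 0 h the vectors differed by 0.0631 percentage points (-2.38 in A and 2.50 in B) and at 48 h SETD5 cells were 15.2 percentage points below empty-vector cells (-20.6 in A and -9.83 in B). With 2 libraries against 2 the smallest possible p is 0.333. The time difference in empty-vector cells exceeded that in SETD5 cells by 15.3 percentage points (exact permutation of the vector labels within each time, p = 0.167, where the smallest possible is 0.0556), so the vectors were not shown to differ in their response over time.

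**Figure D2:**
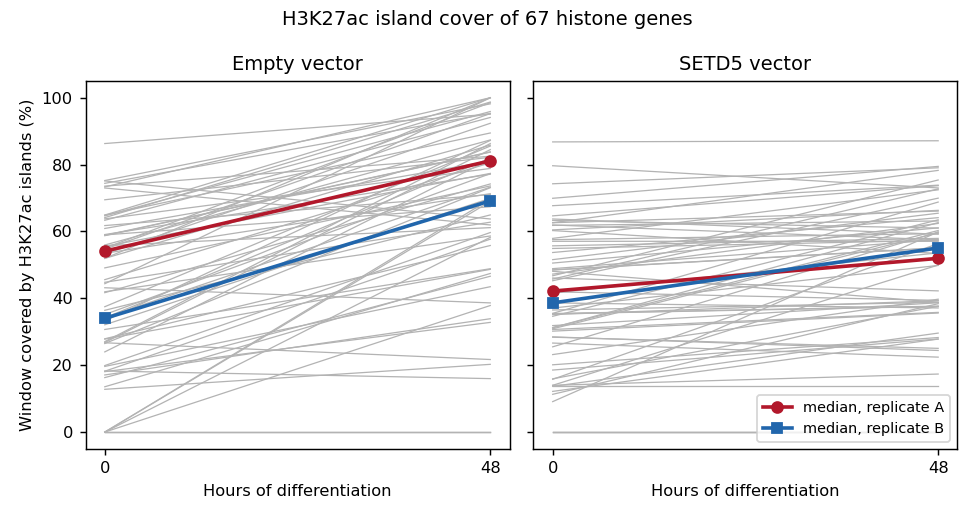
Percentage of each gene's window inside H3K27ac islands at 0 h and 48 h, in empty-vector cells (left) and SETD5 cells (right). Grey lines are the 67 genes (means of replicates A and B) and coloured lines are medians per replicate, which went from 54.1% and 34.0% to 81.1% and 69.2% with the empty vector and from 42.2% and 38.6% to 52.0% and 55.1% with SETD5.

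Gene by gene, cover was larger at 48 h than at 0 h in both replicates at 55 of the 67 genes in empty-vector cells (24.3% of all genes, and 51 genes against 16.6% with the start window) and smaller in both at 0 (14.7% of all). The median differences were 24.6 percentage points in A and 29.96 in B. In SETD5 cells it was larger in both at 30 (18.3% of all genes, and 30 genes against 9.95% with the start window) and smaller in both at 5 (18.6% of all), with medians of 4.57 and 8.42. Over all genes the median was 0 in every one of these comparisons. A gene with no island at either time has a difference of 0. Both replicates of a group had an island at 76.1% to 95.5% of the histone genes and 53.0% to 55.2% of all genes. The medians and shares over all genes thus also reflect how many genes carry H3K27ac at all. Both 48 h libraries of empty-vector cells lay above both 0 h libraries at 49 of 67 genes (73.1%), which held for 20.2% of all genes, and both lay below at 0 genes against 12.1% of all. For the window of 2000 bp on each side of the start, which has the same length for every gene, the counts were 45 genes and 12.8% of all genes.

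In SETD5 cells, both 48 h libraries lay above both 0 h libraries at 23 genes (15.8% of all genes, and 24 genes against 7.86% with the start window) and below at 5 genes (15.4% of all). Those 5 were Hist1h2ac, Hist1h2bc, Hist1h1a, Hist2h2ab and Hist2h2ac. Between the vectors at 48 h, both SETD5 libraries lay below both empty-vector libraries at 43 genes (16.1% of all genes, and 42 genes against 12.3% with the start window) and above at 0 genes (11.6% of all). At 0 h they lay below at 4 genes (7.11% of all) and above at 6 genes (12.4% of all). These comparisons share libraries and the genes share islands, so the counts are not independent of each other.

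**Figure D3:**
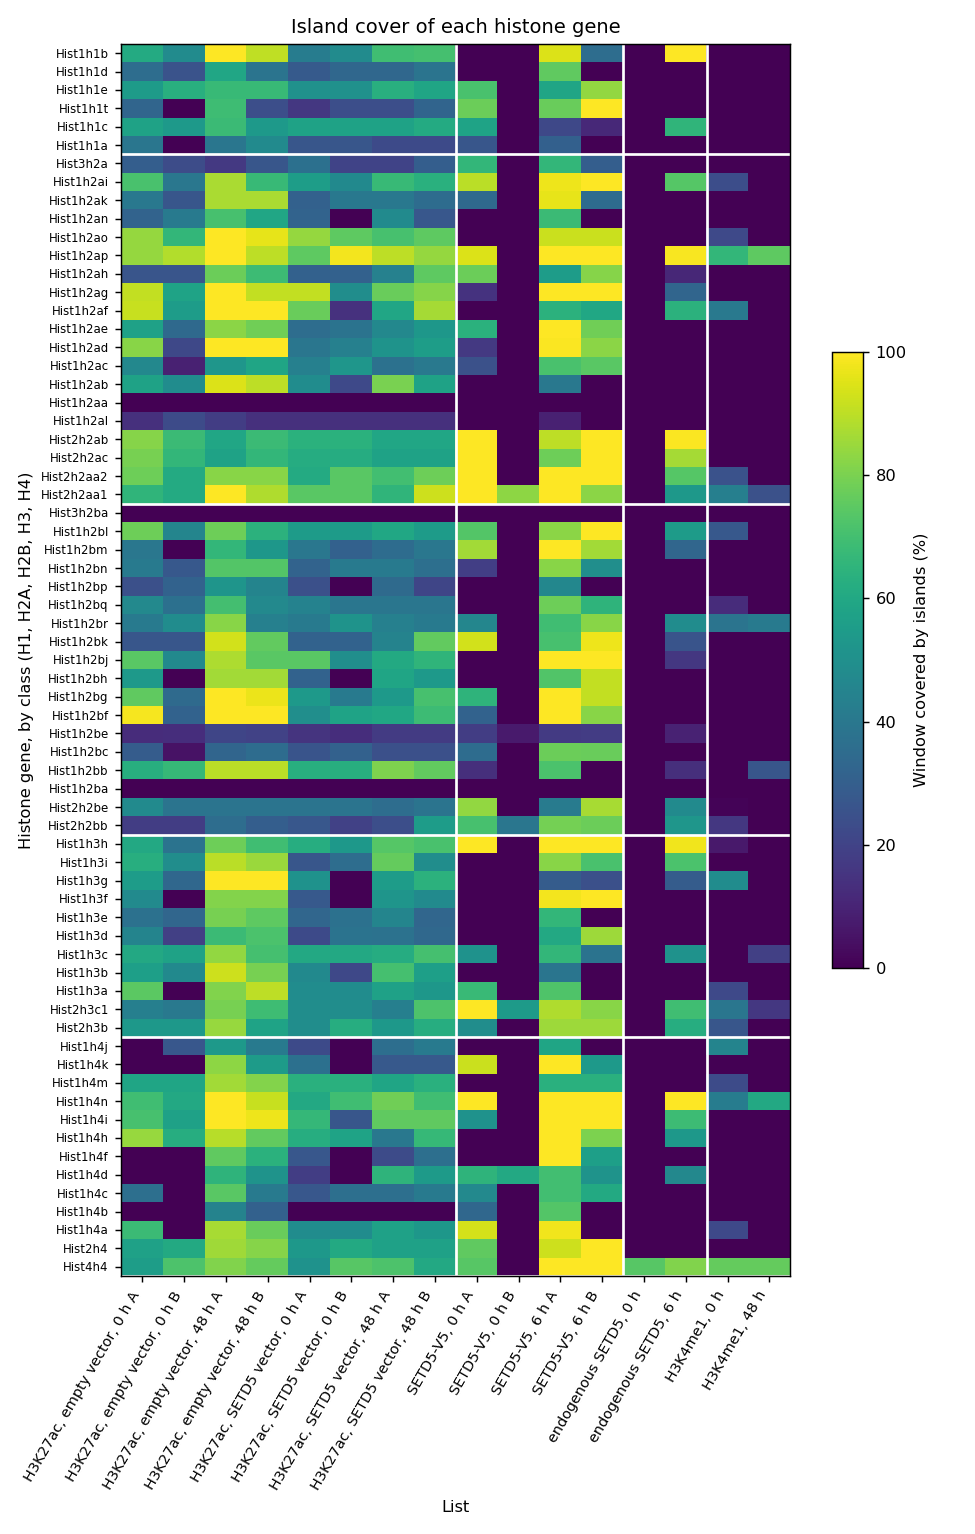
Percentage of each gene's window covered by islands, for the 67 genes in rows by class (H1, H2A, H2B, H3 and H4, from the top) and the 16 lists in columns. The empty-vector 48 h columns are the brightest of the H3K27ac block, and rows of Hist3h2ba, Hist1h2ba and Hist1h2aa are at 0 throughout.

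By class, all 11 H3 and all 13 H4 genes had larger H3K27ac cover at 48 h than at 0 h in both replicates of empty-vector cells, as did 14 of 19 H2A, 13 of 18 H2B and 4 of 6 H1 genes, against 24.3% of all genes. The median differences in A and B were 30.8 and 31.6 percentage points for H4, 31.2 and 36.1 for H3, 15.9 and 27.8 for H2A, 20.4 and 20.4 for H2B, and 18.0 and 18.6 for H1. In SETD5 cells the medians were 8.81 and 4.55 for H4, 11.2 and 13.4 for H3, 0 and 10.0 for H2A, 1.21 and 6.58 for H2B, and 6.63 and 6.63 for H1. Differences between the classes were not tested.

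Of the histone genes, only H4 genes passed from no H3K27ac island in either 0 h library to an island in both 48 h libraries of empty-vector cells. There were 4 of them among the 67 genes, Hist1h4f, Hist1h4k, Hist1h4d and Hist1h4b, against 2.32% of all genes (4 genes against 2.07% with the start window). All H4 genes encode the same core protein. Hist1h4b (chr13:23848806-23849296, plus strand, 1 exon) was covered to 44.5% and 31.2% in these 48 h libraries, by islands of 2000 and 1400 bp, and had no island in the other 6 H3K27ac lists. It was the single gene with an island in both empty-vector and neither SETD5 library at 48 h (0.818% of all genes). Hist1h4f was covered to 75.5% and 63.8% in empty-vector cells at 48 h, to 27.3% and 0% in SETD5 cells at 0 h and to 22.8% and 36.4% at 48 h. For Hist1h4k these values were 82.9% and 55.1%, 37.1% and 0%, and 27.8% and 27.8%. Its empty-vector values at 48 h thus lay above all others, whereas Hist1h4d reached 65.1% and 51.4% by 48 h with the empty vector and 65.1% and 54.6% with SETD5, from 18.2% and 0%. The vectors overlapped at 48 h for that gene. No histone gene had an H3K27ac island in both 48 h libraries and neither 0 h library of SETD5 cells (1.89% of all genes), or in both 0 h and neither 48 h library of empty-vector cells (2.16% of all) or SETD5 cells (1.52% of all).

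By the mean of both replicates, the longest H3K27ac islands of empty-vector cells at 48 h lay over Hist1h4h, Hist1h2af and Hist1h3g, adjacent H4, H2A and H3 genes at chr13:23622919-23627820. The island at Hist1h2af was 6200 and 2600 bp long in empty-vector cells at 0 h and 9800 and 8600 bp at 48 h, and 3400 and 2600 bp in SETD5 cells at 0 h and 2600 and 3600 bp at 48 h. Both empty-vector libraries at 48 h exceeded the 6 others. Cover of Hist1h3g went with it, at 55.4% and 33.3%, then 100% and 100% in empty-vector cells, and 51.0% and 0%, then 55.4% and 64.2% in SETD5 cells. At Hist1h4h cover was 84.7% and 62.4%, then 89.2% and 75.8% in empty-vector cells, and 62.4% and 58.2%, then 40.0% and 66.8% in SETD5 cells, so its times overlapped with either vector. Hist1h2ap, among the 3 longest at 0 h, had islands of 3800 and 4000 bp, then 8600 and 5000 bp in empty-vector cells, and 3400 and 4600 bp, then 4400 and 3800 bp in SETD5 cells, and it has few unique reads.

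The divergent pair Hist1h2bf and Hist1h2ad, whose shared promoter is shown above, was covered completely in both empty-vector libraries at 48 h. At 0 h Hist1h2bf was at 98.5% and 31.3%, and in SETD5 cells it went from 49.2% and 58.2% to 59.7% and 68.6% by 48 h. The 5600 bp island of replicate A at 0 h spanned 5 genes, Hist1h2ae, Hist1h2bg, Hist1h2bf, Hist1h2ad and Hist1h3d, and replicate B had 1000 to 1600 bp there. The linker histone gene Hist1h1b, which encodes H1.5 and in which 99.1% of reads are unique, was at 61.0% and 48.4%, then 100% and 90.5% in empty-vector cells, and at 42.2% and 48.4%, then 69.4% and 70.5% in SETD5 cells. Its 48 h libraries lay above its 0 h libraries with both vectors, and the empty vector lay above SETD5 at 48 h.

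Genes outside the chromosome 13 clusters followed in part. Hist2h4 was covered to 57.1% and 60.6% at 0 h and 85.6% and 82.0% at 48 h with the empty vector, and in SETD5 cells to 53.5% and 60.6%, then 57.1% and 57.1%. Hist2h3c1 was at 43.1% and 40.3%, then 79.4% and 69.0% with the empty vector, and at 48.9% and 48.9%, then 43.1% and 71.9% with SETD5, where the replicates disagreed. Hist2h2aa1 was at 65.5% and 61.2%, then 100% and 88.2%, and at 74.3% and 74.3%, then 65.5% and 92.6%. These 3 genes had empty-vector 48 h values above both 0 h values, as did Hist2h2aa2, Hist2h3b, Hist2h2bb and Hist4h4. Hist2h2aa2 was at 77.8% and 61.2%, then 82.2% and 82.2% with the empty vector, and at 61.2% and 74.3%, then 69.9% and 77.8% with SETD5. Hist2h3b was at 53.5% and 53.5%, then 84.7% and 57.9%, and at 49.0% and 62.4%, then 53.5% and 62.4%. Of reads at Hist2h2aa1 and Hist2h2aa2, 57.7% and 55.9% are unique.

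Hist2h2ab, Hist2h2ac, Hist2h2be and Hist3h2a did not have larger H3K27ac cover at 48 h in both replicates of empty-vector cells. Hist2h2ab was at 81.9% and 68.3%, then 59.2% and 68.3% with the empty vector, and at 63.7% and 63.7%, then 59.2% and 59.2% with SETD5. Its neighbours Hist2h2ac and Hist2h2be lay on the same islands, of 2600 to 3600 bp in all 8 lists. Hist2h2bb, which spans 9281 bp, was at 18.1% and 18.1%, then 35.8% and 29.8% with the empty vector, and at 27.1% and 19.3%, then 24.1% and 55.4% with SETD5. Hist3h2a was at 30.1% and 23.4%, then 16.7% and 26.7%, and at 36.7% and 20.0%, then 20.0% and 30.1%, with the times overlapping for both vectors. Hist4h4 was at 55.7% and 71.9%, then 81.2% and 76.5%, and at 51.0% and 74.2%, then 71.9% and 60.3%, and only its empty-vector times did not overlap. Hist1h2al, alone on chromosome 13, had islands of 600 to 1000 bp in all 8 lists.

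**Figure D4:**
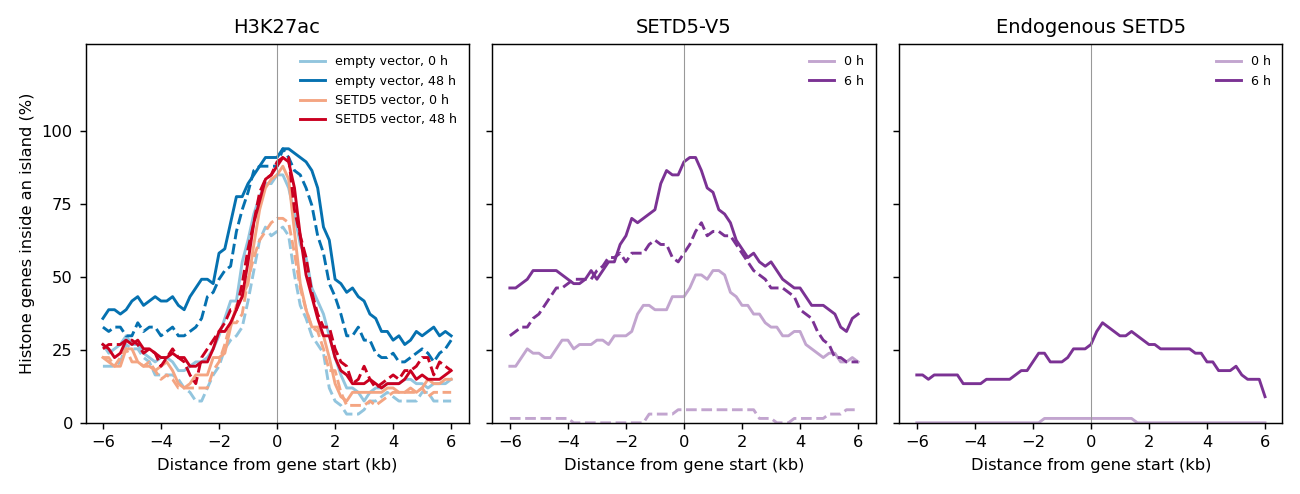
Percentage of the 67 genes inside an island by distance from the gene start in kb, with positive distances in the direction of transcription, for H3K27ac, SETD5-V5 and endogenous SETD5 (solid lines are replicate A or the only library, dashed lines replicate B). H3K27ac of empty-vector cells at 48 h is wider than in the other groups. SETD5-V5 at 6 h is broader than H3K27ac, and its islands are also longer over whole lists.

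The profile around the start showed where the cover differed. At the start itself, 91.0% and 88.1% of the genes were inside an H3K27ac island in empty-vector cells at 48 h and 88.1% and 89.6% in SETD5 cells at 48 h. At 2000 bp downstream the values were 49.3% and 43.3% with the empty vector and 22.4% and 25.4% with SETD5, and at 0 h they were 22.4% and 7.46% with the empty vector and 13.4% and 17.9% with SETD5. Over all genes, 14.3% and 11.5% were inside an island at this distance in empty-vector cells at 0 h and 17.9% and 15.1% at 48 h. The vectors at 48 h were thus closer at the starts than in the flanks. The islands also stood at different places in the caller's ranking. The median histone gene island was outscored by 57.8% and 66.6% of the islands of its list in empty-vector cells at 0 h and by 18.0% and 26.9% at 48 h, and in SETD5 cells by 50.8% and 55.1% at 0 h and 45.0% and 47.3% at 48 h. A list's own median island was 2800 and 2200 bp long in empty-vector cells at 0 h and 2800 and 2400 bp at 48 h, whereas the islands at histone genes had medians of 2800 and 2200 bp, then 4300 and 3800 bp.

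SETD5-V5 covered the histone genes widely at 6 h. An island was present at 43 and 5 genes at 0 h (replicates A and B) and at 64 and 51 at 6 h, against 27.2%, 12.9%, 49.9% and 34.4% of all genes. Both replicates had one at 5 genes at 0 h (11.9% of all genes) and at 51 at 6 h (33.4% of all). Cover of the merged windows was 35.3% and 4.63% at 0 h and 60.1% and 48.5% at 6 h, a difference of 34.4 percentage points with means of 19.9% ± 21.7 and 54.3% ± 8.21 (SD, n = 2 each, exact permutation p = 0.333, the smallest possible). The number of genes differed by 33.5 (24 ± 26.9 and 57.5 ± 9.19, n = 2 each, exact permutation p = 0.333). Without replicate B at 0 h the differences were 19.1 percentage points and 14.5 genes, and without replicate A at 0 h they were 49.7 and 52.5. The whole lists moved too, from 16054 and 6666 islands to 35573 and 27220. With the same number of islands kept in every SETD5-V5 list, by score, the differences were 24.6 percentage points and 22 genes.

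At single genes, both 6 h libraries had more SETD5-V5 cover than both 0 h libraries at 32 genes, against 23.1% of all genes (32 genes against 14.1% with the start window). Against replicate A at 0 h alone, without replicate B, it was again 32 genes, and 23.5% of all. An island in both 6 h and neither 0 h library was found at 13 genes, against 10.4% of all genes (13 genes against 8.46% with the start window), and in both 6 h libraries but not in replicate A at 0 h at 13 genes, against 10.9% of all. The 6 with the largest differences were Hist1h2bq, Hist1h3f, Hist1h2bj, Hist1h2ao, Hist1h4h and Hist1h3d, and 0 genes had the opposite pattern (0.112% of all). Hist1h3f was covered to 98.4% and 100% at 6 h, Hist1h2bj to 100% and 100%, Hist1h4h to 100% and 80.3% and Hist1h3d to 60.4% and 85.3%, from 0% in both 0 h libraries. Hist1h2bq was at 77.9% and 65.1% and Hist1h2ao at 92.2% and 92.2%, both with few unique reads. The most genes on 1 island at 6 h were 5, under domains of 13200 and 14400 bp that spanned Hist1h2ah, Hist1h2bk, Hist1h4i, Hist1h2ag and Hist1h2bj. Replicate A at 0 h had 7000 bp there, short of Hist1h2bj. The 5 genes with SETD5-V5 in both 0 h libraries, out of the 43 with it in replicate A, were Hist1h4d, Hist1h2be, Hist2h2aa1, Hist2h3c1 and Hist2h2bb.

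Endogenous SETD5 was profiled with an antibody raised against a fragment of SETD5 itself and not against the tag. It had an island at 1 gene at 0 h and at 31 genes at 6 h, against 4.90% and 9.84% of all genes. At 6 h but not 0 h it was present at 30 genes, compared with 6.46% of all genes (29 genes against 4.87% with the start window). These 31 genes lay on 13 separate islands, and each time has 1 library, so the difference has no replicate check. By class they were 2 H1, 9 H2A, 9 H2B, 6 H3 and 5 H4 genes, and by place 14 were in the first chromosome 13 block, 8 in the second, 8 among the 9 Hist2 genes and 1 was Hist4h4. The median such island was outscored by 44.2% of the islands at 6 h.

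The longest endogenous SETD5 island at these genes, of 7200 bp, lay over Hist1h4n, Hist1h2ap and Hist1h2br, which have few unique reads. Next came 2 islands of 6600 bp. One covered Hist1h1b completely, with SETD5-V5 at 0% and 0% at 0 h and at 94.8% and 35.7% at 6 h. The other spanned Hist1h1c, which encodes H1.2, Hist1h3c and Hist1h2bb, where cover was 65.4%, 51.0% and 13.4%. At Hist1h1c SETD5-V5 cover was 58.2% and 0% at 0 h and 21.6% and 11.4% at 6 h, so tagged SETD5 was not higher at 6 h in replicate A. Hist4h4, the single gene with endogenous SETD5 at 0 h, was covered to 74.2% at 0 h, by an island of 3200 bp, and to 81.2% at 6 h. SETD5-V5 at Hist4h4 was at 74.2% and 0% at 0 h and at 100% and 100% at 6 h.

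Tagged and endogenous SETD5 overlapped at 6 h. Of the 31 genes with endogenous SETD5, 31 carried SETD5-V5 in replicate A and 30 in replicate B, with Hist1h2bb lacking it in B, against 94.6% and 88.2% of all genes with endogenous SETD5. The mean share for the histone genes was 98.4%. Of all 67 histone genes, 95.5% and 76.1% carried SETD5-V5 at 6 h, so in replicate A almost any subset would overlap this much. Conversely, 48.4% and 58.8% of the histone genes with SETD5-V5 at 6 h had endogenous SETD5, against 18.7% and 25.3% of all genes. Endogenous SETD5 was at 46.3% of all 67 histone genes and 9.84% of all genes at 6 h, so these shares partly restate that difference. The endogenous list at 6 h is much the shorter, with 3293 islands.

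Genes with endogenous SETD5 at 6 h also had a larger median cover of H3K27ac in every list, which is given as a description without a test. In empty-vector cells at 0 h the median H3K27ac cover was 61.0% and 49.1% at the 31 genes and 40.5% and 23.1% at the other 36, and at 48 h it was 83.6% and 70.6% against 73.8% and 65.6%. In SETD5 cells it was 55.5% and 49.3% against 31.9% and 32.1% at 0 h, and 59.6% and 65.4% against 39.6% and 38.9% at 48 h. H3K4me1 islands were at 15 of the 31 and 6 of the 36 genes at 0 h, and at 8 and 0 at 48 h. Neighbouring genes share islands in both assays.

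**Figure D5:**
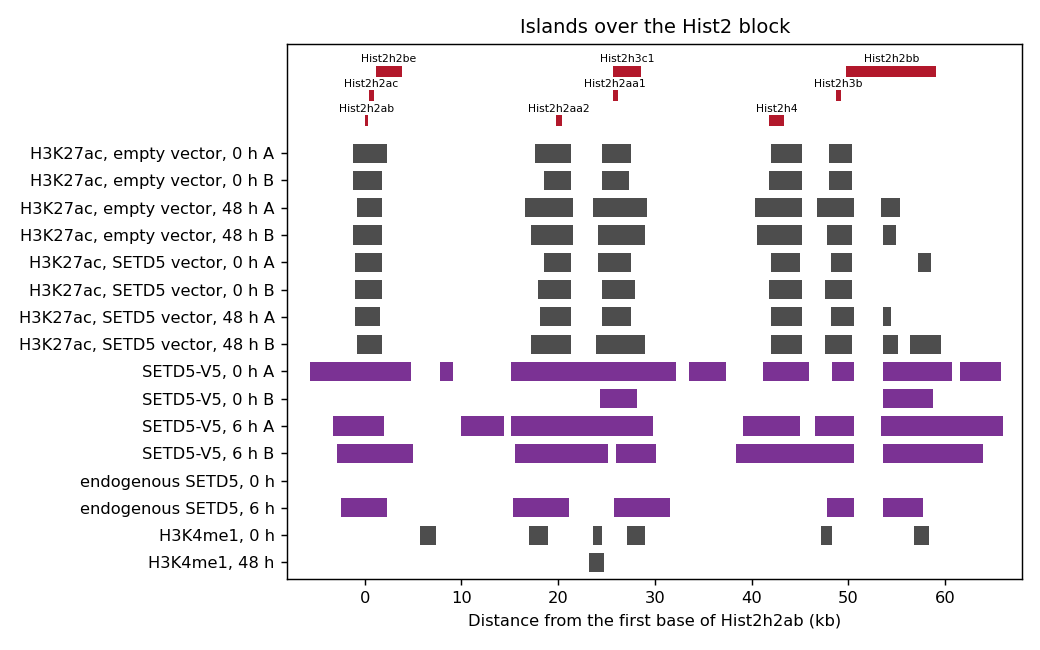
Islands over the Hist2 block in each of the 16 lists, by distance in kb from the first base of Hist2h2ab (grey, histone marks; purple, SETD5), with the 9 genes above in red. H3K27ac formed short islands at the genes in every list. SETD5-V5 formed mostly longer islands, as over whole lists, and endogenous SETD5 was present at 6 h and not at 0 h.

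The Hist2 block, 59.1 kb long, showed the arrangement of the marks. SETD5 islands were called with wider gaps than H3K27ac (600 bp against 400 bp), from chromatin that the study sheared less finely. Over whole lists the median island was 3800 to 4000 bp for SETD5-V5 and 2000 to 2800 bp for H3K27ac. A wider SETD5-V5 island is thus not particular to these genes. H3K27ac covered 14.8 and 13.2 kb of it in empty-vector cells at 0 h and 23.0 and 19.6 kb at 48 h, and 14.6 and 14.8 kb in SETD5 cells at 0 h and 14.2 and 21.3 kb at 48 h. SETD5-V5 covered 39.5 and 9 kb at 0 h and 36.5 and 36.5 kb at 6 h, so replicate A showed no larger cover at 6 h here. Endogenous SETD5 covered 0 kb at 0 h and 20.96 kb at 6 h, with islands at 8 of the 9 genes and none at Hist2h4. The endogenous islands covered 99.3% of Hist2h2ab, 86.7% of Hist2h2ac, 47.7% of Hist2h2be, 73.4% of Hist2h2aa2, 53.3% of Hist2h2aa1, 69.5% of Hist2h3c1, 62.4% of Hist2h3b and 52.4% of Hist2h2bb.

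An H3K4me1 island was present at 21 genes (31.3%) at 0 h and at 8 (11.9%) at 48 h, against 44.5% and 46.3% of all genes, whose windows are mostly longer. With start windows of equal length the shares were 29.9% of the histone genes and 28.2% of all genes at 0 h, and 11.9% and 29.3% at 48 h. Of the 67 genes, 15 had an island at 0 h and none at 48 h, compared with 6.45% of all genes (14 genes against 7.27% with the start window), and 2 had the reverse, compared with 8.23%. There is 1 library per time, and the direction turned with 2 alternative rules, to 2 genes more at 48 h with islands above the median score alone and to 1 more where 50% of the window had to be covered. The islands at 0 h were short, with a median of 1600 bp, and 5 genes had one at the gene start.

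The 6 genes with the largest H3K4me1 cover at 0 h and none at 48 h were Hist1h3g (48.6%), Hist2h2bb (16.2%), Hist1h4j (45.2%), Hist1h2af (40.3%), Hist1h2ai (23.8%) and Hist1h2bl (27.4%), ordered by bases. Hist1h3g and Hist1h2af shared a 2200 bp island, which lay where H3K27ac reached full cover in empty-vector cells at 48 h. The 2 genes with H3K4me1 at 48 h alone, Hist1h2bb (26.9%) and Hist1h3c (18.8%), shared an island of 1200 bp. Hist4h4 was at 76.5% at both times. Of the 8 genes marked at 48 h, 3 were Hist1h4n, Hist1h2ap and Hist1h2br, with few unique reads.

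Genes that act with the histone genes were counted in the same way. Of 19 genes for the transcription and processing of histone mRNA, such as those for NPAT, which activates histone transcription, and SLBP, H3K27ac islands lay at 18 to 19 in every list. SETD5-V5 lay at 2 and 1 of them at 0 h and 12 and 4 at 6 h, endogenous SETD5 at 0 and 2, and H3K4me1 at 9 and 6. Shares over all genes were 54.6% to 56.5% for H3K27ac, and 27.2% and 12.9%, then 49.9% and 34.4% for SETD5-V5. For endogenous SETD5 they were 4.90%, then 9.84%, and for H3K4me1 44.5%, then 46.3%. These small lists were not tested against all genes. Of 7 histone chaperones of replication, 5 to 6 carried H3K27ac, 3 and 0 then 6 and 3 SETD5-V5, 0 and 0 endogenous SETD5, and 4 and 4 H3K4me1. Of 10 replication-independent histone genes that matched the annotation, out of 11 listed, 9 carried H3K27ac in every list, 6 and 2 then 8 and 6 SETD5-V5, 1 then 5 endogenous SETD5, and 6 and 6 H3K4me1. Over the 5 preadipocyte and 6 adipocyte markers, endogenous SETD5 was at 1 and 1 at 0 h and 1 and 2 at 6 h.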

How the data were processed

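ChIP-seq of 16 libraries of 3T3-L1 cells was deposited as 1 list of islands per library. Reads, of which 36 bp were used, had been aligned by the authors to mm9 (ELAND or Bowtie2), and islands were called per library with SICER, in windows of 200 bp with gaps of 400 bp (histone marks) or 600 bp (SETD5) and an E-value threshold of 100. The deposited lists hold positions and the authors' score, which is not comparable between lists and was used only to rank islands within one. No 2 of the 16 lists are identical. The lists give no counts. The study reports total reads per library, which were not used here, and the number of islands does not stand for depth.

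Gene positions and sequences are those of NCBIM37 with GENCODE vM1, and 0 island ends lay beyond a chromosome. Cover is the union of islands in a gene with 2000 bp on each side. Covered percent over all genes of the set is taken over the merged windows. Groups are those of the labels. Means over libraries were compared with two-sided exact permutation tests, other factors pooled, with Benjamini-Hochberg adjustment over 4 H3K27ac comparisons. The interaction of vector and time was added after the data were seen, as were the alternatives to the values within a vector or a time. The test across libraries and the overlap code were tested on simulated data. The members, lists and tests were chosen with earlier results of these data known. Genes named were those outside Hist1, those with an island in every library of one side and none of the other (at most 6 per comparison), those with the longest H3K27ac (3 per time) and endogenous SETD5 islands (at most 6), and those with no island. Other genes named were chosen after their values were seen. Alternatives were other windows, islands above the median score, equal numbers of islands, 50% cover, merged windows, restricted permutations, scaling to all genes, each library left out and a replicate block. Python 3.11.15, numpy 2.4.6, scipy 1.17.1, numba 0.67.0, matplotlib 3.10.9, samtools 1.23.1 and, for checks, bedtools 2.31.1 were used.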

Additional observations from a re-analysis of the deposited data

How the results depend on the processing

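H3K27ac cover at 48 h minus 0 h ranged from 11.3 to 18.2 percentage points as each library was left out, and the count of genes from 4.83 to 8.5. The difference within empty-vector cells ranged from 18.5 to 27.2, within SETD5 cells from 5.63 to 9.44, between the vectors at 48 h from -19.2 to -11.3, and the excess of the empty-vector difference from 11.0 to 19.6. The vector difference over both times ranged from -12.8 (without empty-vector 0 h replicate B) to -2.47 (without empty-vector 48 h replicate A), and in genes from -1.58 to 3.25. SETD5-V5 ranged from 14.5 to 52.5 genes and from 19.1 to 49.7 percentage points.

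The count of genes over time was 26 with islands above the median score, 20 with 50% of the window covered, 12.75 with equal numbers of islands and 1.25 over merged windows, and SETD5-V5 was at 22 genes with equal numbers and 13 over merged windows. With the gene body alone, H3K27ac cover moved to 9.48 over time, 14.1 within empty-vector and 4.85 within SETD5 cells, -2.14 between the vectors, -6.77 at 48 h and 2.50 at 0 h, and 9.27 for the excess. With islands above the median score it was 35.8 within empty-vector cells, -11.7 between the vectors, -25.5 at 48 h and 2.08 at 0 h, and 27.6 for the excess. The vector difference in genes was 0 with the gene body alone and 0.25 over merged windows, and turned to -8.5 with islands above the median score, -10.0 with 50% of the window covered and -0.0026 as a percent of all genes with an island. Its cover at 0 h turned to -0.598 with the start window, -0.871 with equal numbers of islands and -0.0528 without the 6 genes with under 30% unique reads (chosen after seeing the data), and ranged from -4.28 to 4.41 with libraries left out. H3K4me1 turned to 2 and 1, as given, and was -5 with the gene body alone and -7 over merged windows. Endogenous SETD5 was 18 above the median score, 19 with 50% cover and 13 over merged windows, and its share with SETD5-V5 was 100% above the median score, 93.75% with the gene body, 90.0% with 50% cover and 83.3% with equal numbers. The causes were not tested. Over all alternatives, the adjusted p of H3K27ac over time was 0.0571 to 0.5 for cover and for genes. Unadjusted, the exact permutation p for cover, 0.0286, was 0.0556 with permutations within a vector and 0.0571 to 0.0857 without any one of the 4 libraries at 0 h. For genes, 0.0857 became 0.0286 with the gene body, the start window, the median score, equal numbers or without SETD5 0 h replicate A.

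With a replicate block, the p for H3K27ac cover over time was 0.125 and for SETD5-V5 0.5, the smallest possible, with the same differences. Replicate letters were not shown to pair libraries, since differences of A and B over all genes correlated at -0.0833 to 0.159 between H3K27ac groups and 0.315 for SETD5-V5. With 2 libraries per group, and 1 for H3K4me1 and endogenous SETD5, small differences cannot be shown.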
